A study of Homo sapiens with 6 samples.

Results

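Transcript levels of the genes that control the passage from G1 into S phase were read on 6 arrays from a knockdown study that used U2OS, a cell line established from a human osteosarcoma. The list named 36 genes by their role: cyclins of the D, E and A types, their kinases, the CDK inhibitors, the retinoblastoma family and the MuvB core, the E2F and DP transcription factors, and SKP2, MYC and MAX. They were found on 36 of 33297 probe sets as those that the probe annotation gives exactly 1 gene symbol. These stood for 35 genes of 18417, since CDK7 was on 2 probe sets with identical values on all 6 arrays, counted here as 1 reading, and 0 probe sets were named for the inhibitor gene CDKN2C, which is not analysed here. All 35 passed the filter on dim probe sets (a group mean of at least 4 log2 units), CDKN2A through its mean of 4.05 after H3.Y siRNA alone.

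The study asked which transcripts respond when H3.X and H3.Y, primate-specific variants of histone H3, are targeted by RNA interference. Its 3 groups of 2 arrays were cells given siRNA that targets H3.X together with H3.Y (the combined knockdown), cells given siRNA against H3.Y, and cells given siRNA against luciferase, which U2OS cells do not carry. All cells were transfected with siRNA by oligofectamine, received 2 rounds of transfection and were harvested 4 days after transfection. The labels do not say whether the combined group received a pool of siRNAs or 1 siRNA that hits both genes, and while the replicates are named biological, separate cultures are not described. All p-values therefore refer to array-to-array spread, part of which may be technical. The depletion itself was not read, as 0 probe sets were named for the H3.X and H3.Y genes. Values are the deposited log2 expression values, with array medians of 5.10 to 5.14. Over all probe sets, replicate 1 minus replicate 2 had an SD of 0.304 in the combined knockdown, 0.419 after H3.Y siRNA and 0.333 after luciferase siRNA. Precision is set by having 2 arrays in each group.

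As background, cyclin D with CDK4 or CDK6, followed by cyclin E with CDK2, phosphorylates the retinoblastoma protein and its relatives and frees E2F factors to transcribe genes of DNA replication. Inhibitors of the INK4 family block CDK4 and CDK6, while those of the CIP/KIP family, such as the CDKN1B product p27, bind cyclin-CDK2. U2OS cells are known to carry intact RB1 and to silence the CDKN2A product p16.

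Across the list, transcripts of cyclin A2 and RB1 fell in the combined knockdown, which also differed from H3.Y siRNA in CCNA2, E2F5 and SKP2. After H3.Y siRNA, E2F5 had the highest difference from luciferase cells and CDK4 the lowest, and neither passed the test. Probe sets were called at an adjusted p under 0.05 (limma on all 6 arrays, Benjamini-Hochberg over all probe sets). In the combined knockdown against luciferase, 2 of 35 genes were called, both lower, which is 5.71% beside 1.84% of all probe sets (0.859% higher and 0.985% lower). At an unadjusted p under 0.05 there were 13, 2 higher and 11 lower (37.1%), beside 15.3% of all probe sets (7.16% higher and 8.12% lower). Against luciferase, H3.Y siRNA gave 0 called members, beside 0.279% of all probe sets (0.0841% higher and 0.195% lower), while 11 had an unadjusted p under 0.05, of which 1 was higher and 10 were lower (31.4%, beside 13.9% of all probe sets, with 6.21% higher and 7.66% lower). An intensity trend in the prior variance gave 2 calls there, E2F5 and SKP2, beside 0.616% of all probe sets. A fit of only the 4 arrays of that comparison called 0 members and 0 of all probe sets. Between the combined knockdown and H3.Y siRNA, 3 members were called, 1 higher and 2 lower in the combined knockdown, at 8.57% beside 4.67% of all probe sets (2.74% higher and 1.92% lower). At an unadjusted p under 0.05 there were 7 higher and 7 lower (40.0%), beside 19.0% of all probe sets (9.72% higher and 9.28% lower). Both comparisons with luciferase use the same 2 control arrays. All probe sets include unnamed and dim ones, whereas the 35 genes are named and passed the dim filter. Among probe sets that passed it, 4.56% were called in the combined knockdown against luciferase, with the same 2 members. For H3.Y siRNA against luciferase 1.05% were called, with 2 members, and between the knockdowns 9.57%, with 4 members.

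List medians lay near those of all probe sets. The median difference of the 35 genes was log2 -0.09 for the combined knockdown against luciferase, beside 0.00 for all probe sets. It was -0.06 for H3.Y siRNA against luciferase, beside 0.02, and -0.01 for the combined knockdown against H3.Y siRNA, beside -0.03. The median size of the differences, whatever their sign, was 0.27, 0.29 and 0.22 in these 3 comparisons, where all probe sets gave 0.16, 0.17 and 0.19. Arrays of both groups did not overlap for 27 of 35 members in the combined knockdown against luciferase (77.1%, beside 47.4% of all probe sets), for 21 after H3.Y siRNA against luciferase (60.0%, beside 41.7%) and for 23 between the combined knockdown and H3.Y siRNA (65.7%, beside 46.6%). Calls in the combined knockdown rested on every array of its comparison: without any 1 of those 4 arrays 0 of all probe sets were called.

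**Figure D1:**
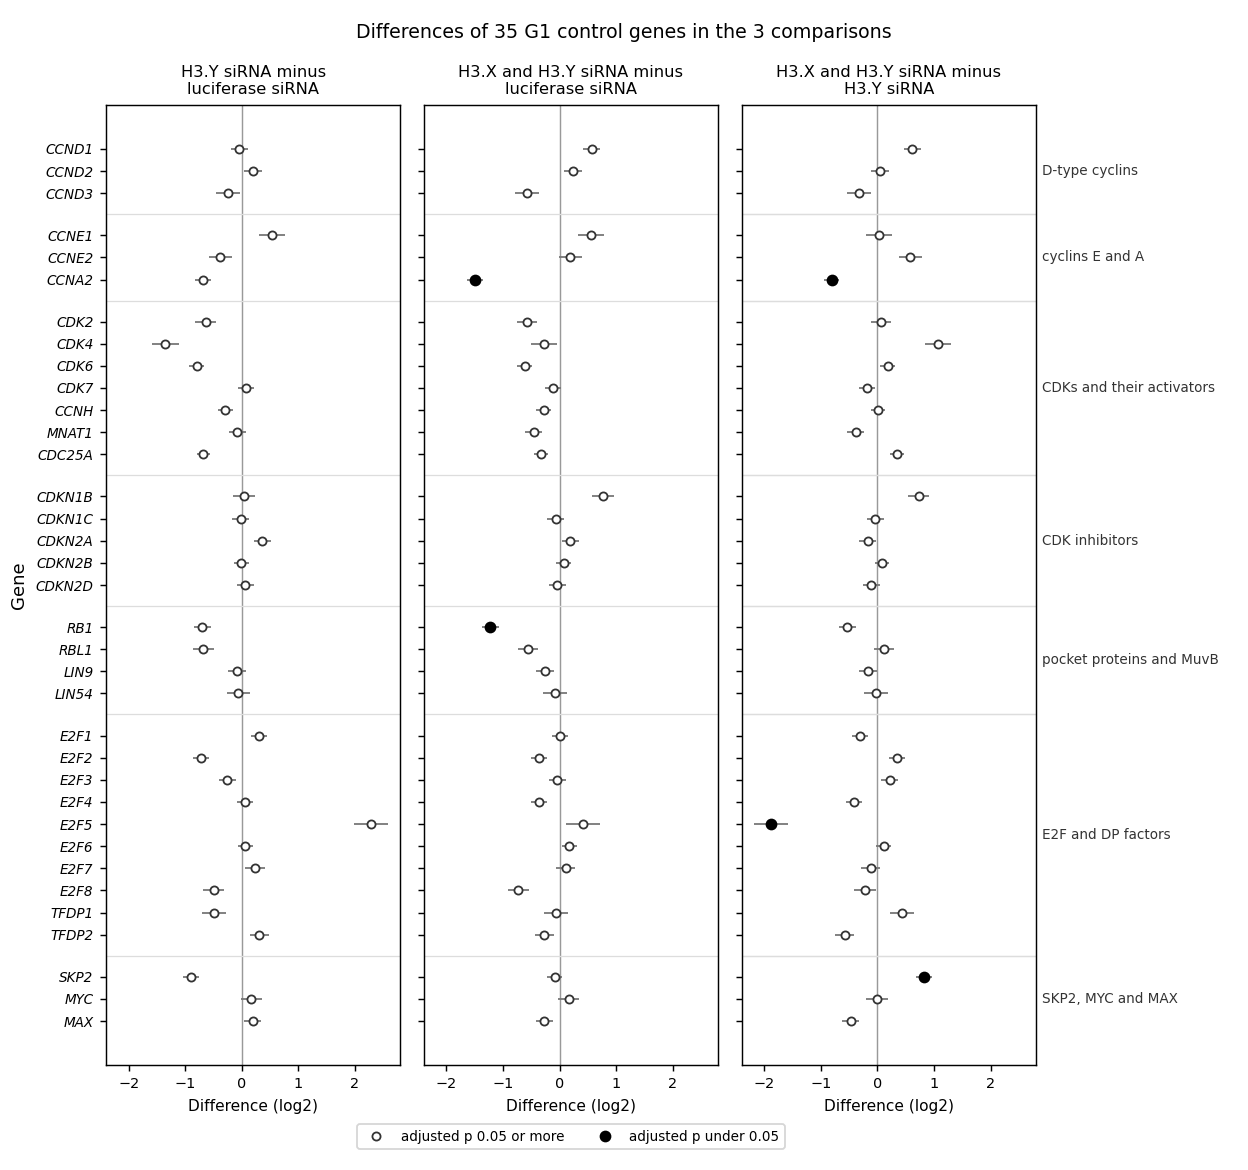
Log2 differences (points) with the standard error of the moderated fit (lines) for 35 genes in rows by class, for H3.Y siRNA minus luciferase, combined siRNA minus luciferase, and combined minus H3.Y siRNA, with filled points for an adjusted p under 0.05. The filled points are CCNA2 and RB1 in the middle panel and CCNA2, E2F5 and SKP2 in the right panel.

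Cyclin A2, which partners CDK2 in S phase and CDK1 at mitotic entry, showed the lowest difference of the list in the combined knockdown. CCNA2 lay at 8.16 and 8.32 log2 units in the combined knockdown and at 8.98 and 9.11 after H3.Y siRNA, against 9.73 and 9.73 in luciferase cells. The 3 groups did not overlap, with H3.Y siRNA between the others. In the combined knockdown it fell 2.81-fold relative to luciferase (log2 -1.49 ± 0.14 SE, n = 2 per group, limma adjusted p = 0.015). In bulk RNA, fewer cells in S and G2 phase and less of this transcript per cell cannot be told apart. H3.Y siRNA differed from luciferase by -0.68 ± 0.14, which did not pass (limma adjusted p = 0.11). The combined knockdown also lay below H3.Y siRNA by log2 -0.81 ± 0.14 (limma adjusted p = 0.030).

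Cyclins E1 and E2 activate CDK2 at the start of S phase. CCNE1 read 9.12 and 9.20 in the combined knockdown and 9.48 and 8.79 after H3.Y siRNA, all 4 above 8.55 and 8.67 in luciferase cells. Its differences from luciferase of 0.55 ± 0.23 and 0.53 ± 0.23 did not pass (limma adjusted p of 0.33 and 0.39). The SE pools all 3 groups, with an SD of 0.06 in the combined knockdown, 0.49 after H3.Y siRNA and 0.08 in luciferase cells. CCNE2 lay at 6.21 and 6.10 in the combined knockdown and 5.72 and 5.44 after H3.Y siRNA, against 5.73 and 6.20. Neither of its differences from luciferase passed, at 0.19 ± 0.20 and -0.38 ± 0.20. Of the 3 cyclins of the E and A types, CCNA2 was thus the 1 that was called.

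The D-type cyclins couple growth signals to CDK4 and CDK6, and 0 of 3 were called in any comparison. CCND1 lay at 9.20 and 9.15 in the combined knockdown and at 8.40 and 8.71 after H3.Y siRNA, against 8.68 and 8.54 in luciferase cells. The combined arrays were the high ones, and those of H3.Y siRNA and luciferase overlapped. The difference between the combined knockdown and luciferase was 0.57 ± 0.15 (limma adjusted p = 0.15), and that between the combined knockdown and H3.Y siRNA 0.62 ± 0.15 (0.082). CCND3 ran the other way, at 6.82 and 6.75 in the combined knockdown, against 7.58 and 7.14 in luciferase cells, with H3.Y siRNA arrays at 7.32 and 6.90. CCND2 read 10.84 to 11.28 over the 6 arrays, and its 3 differences lay between 0.05 and 0.24.

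**Figure D2:**
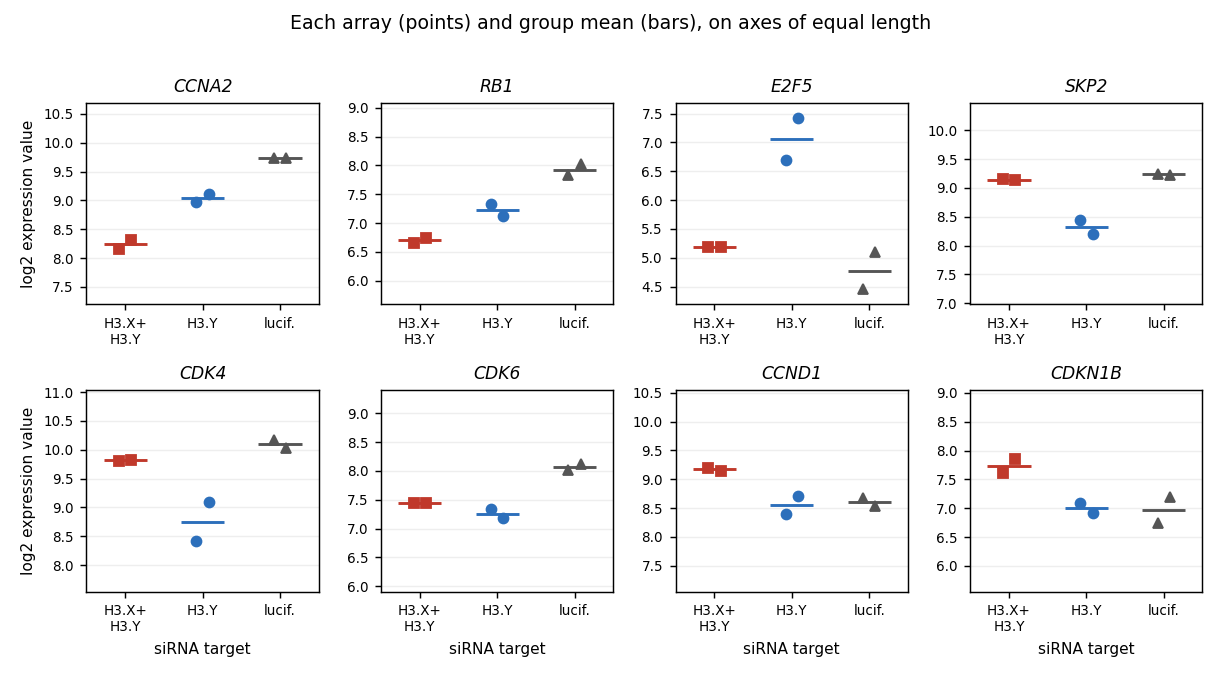
Deposited log2 values of 8 genes on each array (points) with the mean of each group (bars), for the siRNA against H3.X and H3.Y, against H3.Y and against luciferase, on vertical axes of equal length but different position. CCNA2 and RB1 step down with H3.Y siRNA between the other groups, whereas E2F5, SKP2 and CDK4 stand apart after H3.Y siRNA.

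Among the CDKs and their activators, the combined knockdown lay below luciferase in 7 of 7 genes and H3.Y siRNA in 6 of 7, with 0 called in each. Of all probe sets, 49.8% and 46.6% were lower in these comparisons. The class median was log2 -0.33 in the combined knockdown and -0.64 after H3.Y siRNA. CDK6 lay at 7.45 and 7.44 in the combined knockdown and at 7.33 and 7.19 after H3.Y siRNA, against 8.01 and 8.12 in luciferase cells. Both knockdowns were below both luciferase arrays. Its differences were -0.62 ± 0.13 and -0.80 ± 0.13 (limma adjusted p of 0.083 and 0.081).

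CDK4, the other partner of the D-type cyclins, had its lowest values after H3.Y siRNA. It read 9.81 and 9.83 in the combined knockdown and 8.41 and 9.09 after H3.Y siRNA, against 10.17 and 10.03 in luciferase cells. The H3.Y siRNA arrays were the low ones and differed from each other by more than the arrays of the other groups did. H3.Y siRNA differed from luciferase by -1.35 ± 0.23 (limma adjusted p = 0.086), the combined knockdown from luciferase by -0.28 ± 0.23 (0.69), and the combined knockdown from H3.Y siRNA by 1.07 ± 0.23 (0.054). Without H3.Y replicate 2, which left 8.41 as the only H3.Y siRNA value, the first and the last of these were -1.69 and 1.41. With all 6 arrays the difference between the knockdowns passed when arrays were centred (limma adjusted p = 0.047) or dim probe sets were left out (0.034). It also passed when the prior variance followed intensity (0.037) or 1 probe set per gene was tested (0.011). It did not pass with the replicate number as a block (0.056) or after quantile normalization again (0.065). A fit of only those 4 arrays did not pass either (0.11).

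CDK2, which acts with cyclins E and A, read 8.15 and 8.45 in the combined knockdown and 8.08 and 8.41 after H3.Y siRNA, against 8.78 and 8.98 in luciferase cells. Its differences from luciferase were -0.58 ± 0.18 and -0.64 ± 0.18, and the knockdowns overlapped. CDC25A, the phosphatase that removes inhibitory phosphates from CDK2, read 7.87 and 7.90 in the combined knockdown and 7.52 and 7.55 after H3.Y siRNA, against 8.25 and 8.18. The 3 groups did not overlap, although no difference passed (limma adjusted p of 0.28 for the combined knockdown, 0.097 for H3.Y siRNA and 0.19 between them). CDK7, CCNH and MNAT1 form the kinase that activates CDKs. CCNH gave -0.28 ± 0.13 and -0.29 ± 0.13 against luciferase in the combined knockdown and after H3.Y siRNA, MNAT1 -0.46 ± 0.15 and -0.08 ± 0.15, and CDK7 -0.11 ± 0.14 and 0.07 ± 0.14.

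Of the 5 measured CDK inhibitors of 6 listed, 0 were called in any comparison. CDKN1B, whose product p27 holds cyclin-CDK2 inactive, read 7.62 and 7.86 in the combined knockdown and 7.09 and 6.92 after H3.Y siRNA, against 6.75 and 7.19 in luciferase cells. The combined knockdown arrays were above the other 4, which overlapped. Its difference from luciferase was 0.77 ± 0.19 in the combined knockdown (limma adjusted p = 0.12) and 0.04 ± 0.19 after H3.Y siRNA (0.96), and the combined knockdown differed from H3.Y siRNA by 0.73 ± 0.19 (0.093).

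CDKN2A gave 3.93 and 3.81 in the combined knockdown and 4.15 and 3.94 after H3.Y siRNA, against 3.80 and 3.58 in luciferase cells. The files hold no detection call, so whether these low values lie above background was not tested. Its largest difference was 0.36 ± 0.15, for H3.Y siRNA against luciferase (limma adjusted p = 0.37). The neighbouring INK4 gene CDKN2B lay between 5.28 and 5.45 on all 6 arrays, CDKN2D between 6.40 and 6.69, and CDKN1C, the gene of p57, between 6.44 and 6.69. Differences of these 3 genes ran from -0.11 to 0.08 over the 3 comparisons.

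The retinoblastoma gene RB1 was the other member called in the combined knockdown. It lay at 6.66 and 6.74 in the combined knockdown and at 7.34 and 7.12 after H3.Y siRNA, against 7.83 and 8.02 in luciferase cells. As for CCNA2, the 3 groups did not overlap and H3.Y siRNA lay between the others. RB1 fell 2.35-fold in the combined knockdown (log2 -1.23 ± 0.15 SE, n = 2 per group, limma adjusted p = 0.023). H3.Y siRNA differed from luciferase by -0.70 ± 0.15 (0.13), and the combined knockdown from H3.Y siRNA by -0.53 ± 0.15 (0.11).

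RBL1 encodes p107, a relative of RB1 that works with repressor E2Fs. It read 7.07 and 7.24 in the combined knockdown and 6.85 and 7.22 after H3.Y siRNA, against 7.60 and 7.84 in luciferase cells. Both knockdowns lay below luciferase, by -0.56 ± 0.18 and -0.68 ± 0.18, and neither difference passed (limma adjusted p of 0.21 and 0.18). RBL2, the gene of the third pocket protein p130, is no member but belongs to the same family. It lay at 7.54 and 7.59 in the combined knockdown and at 5.54 and 5.95 after H3.Y siRNA, against 6.71 and 7.11 in luciferase cells, and it was higher in the combined knockdown than after H3.Y siRNA by log2 1.82 ± 0.20 (limma adjusted p = 0.012). The knockdowns lay on opposite sides of luciferase, and neither passed against it (0.66 ± 0.20 in the combined knockdown and -1.17 ± 0.20 after H3.Y siRNA). The call between the knockdowns was lost without either array of the combined knockdown (limma adjusted p up to 0.098) and kept without any other array. LIN9 and LIN54, subunits of the MuvB core that joins pocket proteins and E2F in the DREAM complex, had differences between -0.26 and -0.02 in the 3 comparisons.

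E2F5, a repressor-type E2F that binds p130, had the highest difference of the whole list. It lay at 6.69 and 7.43 after H3.Y siRNA, against 4.45 and 5.10 in luciferase cells. In the combined knockdown it lay at 5.18 on both arrays. The combined knockdown was lower than H3.Y siRNA by log2 -1.88 ± 0.30 SE (n = 2 per group, limma adjusted p = 0.027). H3.Y siRNA was above luciferase by 2.29 ± 0.30, a 4.88-fold difference with an adjusted p of 0.055 in limma, and the combined knockdown differed from luciferase by 0.41 ± 0.30 (0.64). Over its alternatives, the adjusted p of H3.Y siRNA against luciferase ran from 0.0052 to 0.29 in limma, on both sides of the threshold. The call between the knockdowns was lost without H3.Y replicate 2 (limma adjusted p = 0.053), without replicate 1 of the combined knockdown (0.16) and without its replicate 2 (0.13).

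Of the activator E2Fs, E2F2 lay below luciferase in both knockdowns and E2F1 did not. E2F1 read 7.0 and 6.96 in the combined knockdown and 7.34 and 7.24 after H3.Y siRNA, against 7.09 and 6.87 in luciferase cells. Its difference from luciferase was 0.00 ± 0.14 and 0.31 ± 0.14. E2F2 read 6.08 and 6.04 in the combined knockdown and 5.61 and 5.82 after H3.Y siRNA, against 6.42 and 6.44. These 3 groups did not overlap, and the differences from luciferase were -0.37 ± 0.14 (limma adjusted p = 0.27) and -0.72 ± 0.14 (0.10). E2F3 lay between 5.86 and 6.33 on all 6 arrays.

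E2F8, an atypical E2F that represses without a DP partner, read 5.15 and 5.34 in the combined knockdown and 5.31 and 5.63 after H3.Y siRNA, against 5.78 and 6.17 in luciferase cells. It differed from luciferase by -0.73 ± 0.19 in the combined knockdown (limma adjusted p = 0.14) and by -0.50 ± 0.19 after H3.Y siRNA (0.32). Its close relative E2F7 gave 0.11 ± 0.17 and 0.23 ± 0.17. The repressor-type E2F4 gave -0.37 ± 0.14 and 0.05 ± 0.14, and E2F6, which works with Polycomb proteins, 0.17 ± 0.13 and 0.06 ± 0.13. The dimer partner TFDP1 gave -0.06 ± 0.21 and -0.49 ± 0.21, and TFDP2 -0.27 ± 0.17 and 0.31 ± 0.17. Of these 10 E2F and DP genes, 0 were called against luciferase in either knockdown, and E2F5 was called between them.

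**Figure D3:**
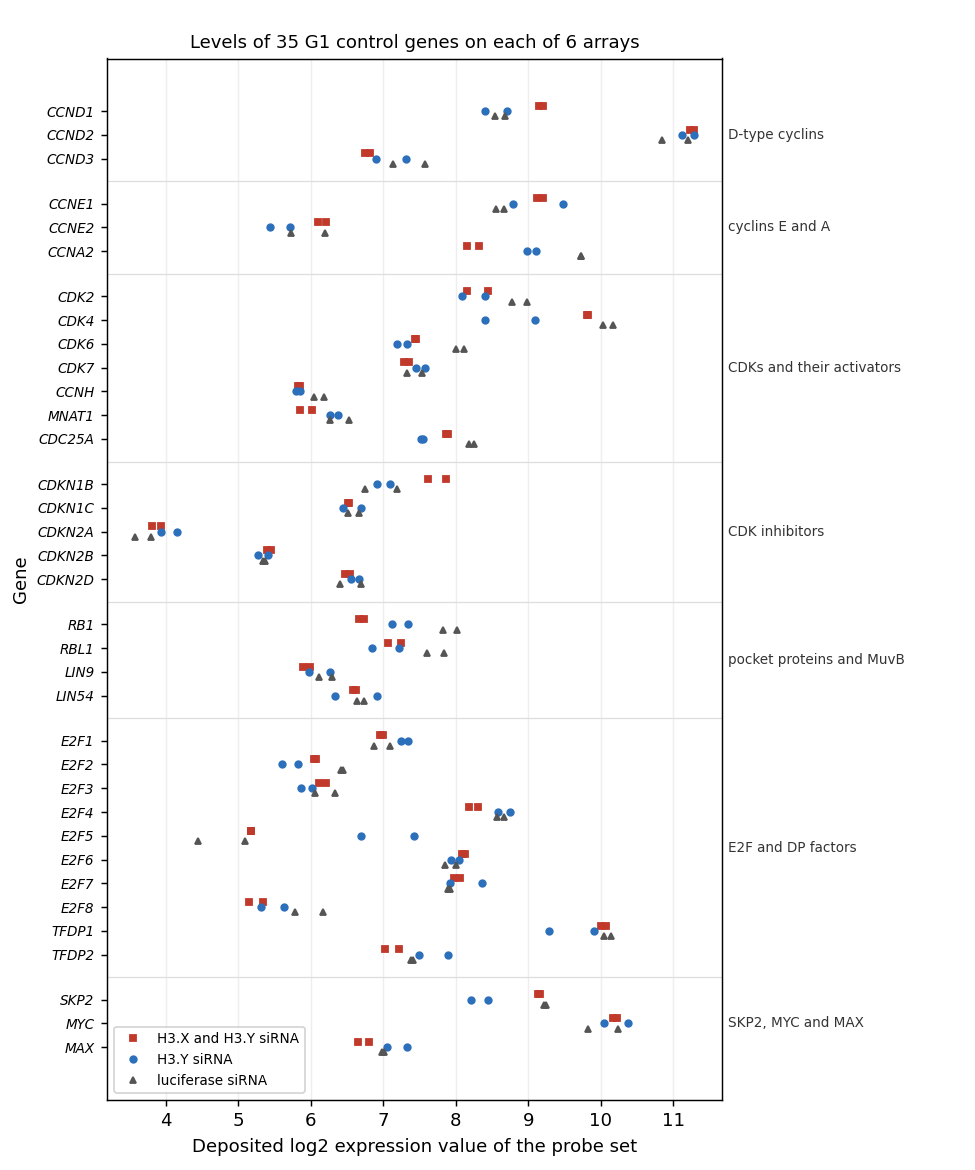
Deposited log2 value of each probe set (horizontal axis) on the 6 arrays for 35 genes in rows by class, with squares for siRNA against H3.X and H3.Y, circles for H3.Y siRNA and triangles for luciferase siRNA. Values of different genes come from different probes and are not comparable with each other, and the circles of E2F5, CDK4 and SKP2 lie away from the other symbols of their rows.

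Several members are themselves known targets of E2F, and their promoters are shown for that reason. RefSeq windows of GRCh38.p14, from 250 bases before to 50 bases after the outermost start of the gene, were at hand for 22 of the 36 listed genes. The letters TTTNNCGC, a core of E2F sites, were searched on both strands, and 6 of the 22 windows (27.3%) held them, beside 6.96% of 24884 windows of all genes. The windows of all genes were not matched to those of the members for base composition or type of gene. The 6 genes were CDC25A, CDKN2D, E2F1, E2F2, E2F3 and RBL1. Those with 2 or more matches were E2F1 with 4, E2F2 with 3 and RBL1 with 2, where neighbouring matches can overlap. In the 4 windows that follow, matches on either strand stand in capitals. They lie at chr3:48188368-48188667 (CDC25A), chr20:33686336-33686635 (E2F1), chr1:23531184-23531483 (E2F2) and chr20:37095948-37096247 (RBL1), all on the minus strand.
CDC25A: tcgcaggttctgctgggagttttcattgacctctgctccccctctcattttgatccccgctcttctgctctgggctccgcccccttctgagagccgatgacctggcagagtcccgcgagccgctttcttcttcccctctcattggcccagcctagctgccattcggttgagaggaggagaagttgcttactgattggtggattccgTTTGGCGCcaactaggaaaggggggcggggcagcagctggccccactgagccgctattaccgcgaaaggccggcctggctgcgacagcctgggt
E2F1: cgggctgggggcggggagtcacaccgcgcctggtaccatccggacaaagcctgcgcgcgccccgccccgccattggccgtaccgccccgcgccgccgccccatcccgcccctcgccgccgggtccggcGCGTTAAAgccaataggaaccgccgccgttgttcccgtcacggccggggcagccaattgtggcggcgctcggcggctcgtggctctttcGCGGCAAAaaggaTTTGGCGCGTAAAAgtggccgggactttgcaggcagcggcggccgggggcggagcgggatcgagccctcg
E2F2: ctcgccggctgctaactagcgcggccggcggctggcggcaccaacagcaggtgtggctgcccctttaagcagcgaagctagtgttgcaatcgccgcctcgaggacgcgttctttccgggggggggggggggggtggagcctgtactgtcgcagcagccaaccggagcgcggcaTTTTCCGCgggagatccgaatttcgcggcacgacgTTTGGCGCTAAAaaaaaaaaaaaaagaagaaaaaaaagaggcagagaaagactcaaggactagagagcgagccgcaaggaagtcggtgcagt
RBL1: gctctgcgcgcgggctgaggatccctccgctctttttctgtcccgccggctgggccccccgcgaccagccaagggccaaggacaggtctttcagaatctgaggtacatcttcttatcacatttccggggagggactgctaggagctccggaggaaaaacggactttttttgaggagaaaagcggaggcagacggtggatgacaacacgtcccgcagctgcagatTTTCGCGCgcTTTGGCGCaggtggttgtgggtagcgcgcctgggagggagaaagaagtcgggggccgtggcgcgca
A match describes these letters and is not a site of binding.

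The window of CCNA2, the member with the lowest difference in the combined knockdown, held no TTTNNCGC. Its promoter is known for a cell cycle genes homology region (CHR), an element through which DREAM and MuvB act. The short core TTGAA was searched on both strands and was found 3 times, at 86, 46 and 27 bases before the start. It is a common word, present in 34.6% of all windows and in 5 of the 22 member windows (22.7%). The window lies at chr4:121823834-121824133 on the minus strand of GRCh38.p14, and its 3 matches stand in capitals.
CCNA2: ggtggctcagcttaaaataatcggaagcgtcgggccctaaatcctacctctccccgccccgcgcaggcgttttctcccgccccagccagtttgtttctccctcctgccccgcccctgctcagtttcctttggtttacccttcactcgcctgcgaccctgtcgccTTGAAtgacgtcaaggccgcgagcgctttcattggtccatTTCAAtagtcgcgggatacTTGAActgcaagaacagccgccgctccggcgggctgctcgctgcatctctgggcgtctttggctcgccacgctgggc
This window also holds CCAAT, the box bound by NF-Y, read on the opposite strand as ATTGG, 56 bases before the start. CCAAT was present on either strand in 36.1% of all windows and in 8 of the 22 member windows (36.4%). SKP2 is the other called member with a window, and it held none of the 3 words.

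SKP2 is the F-box protein that marks p27 for degradation. It lay at 9.16 and 9.13 in the combined knockdown and at 8.44 and 8.21 after H3.Y siRNA, against 9.25 and 9.22 in luciferase cells. The H3.Y siRNA arrays were the low ones. SKP2 was higher in the combined knockdown than after H3.Y siRNA by log2 0.82 ± 0.14 SE, or 1.76-fold (n = 2 per group, limma adjusted p = 0.030). H3.Y siRNA differed from luciferase by -0.90 ± 0.14 (0.072), and the combined knockdown by -0.09 ± 0.14 (0.88). Between the knockdowns the adjusted p was 0.054 to 0.20 in limma without any 1 of the 6 arrays, as it was 0.063 to 0.22 for CCNA2.

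MYC, which drives cyclin D and E2F genes in growing cells, read 10.22 and 10.17 in the combined knockdown and 10.38 and 10.04 after H3.Y siRNA, against 10.24 and 9.83 in luciferase cells. The groups overlapped, and its differences lay between -0.01 and 0.17. Its dimer partner MAX read 6.80 and 6.65 in the combined knockdown and 7.33 and 7.05 after H3.Y siRNA, against 6.99 and 7.01. MAX differed from luciferase by -0.27 ± 0.15 (limma adjusted p = 0.48) and 0.19 ± 0.15 (0.65), and the combined knockdown from H3.Y siRNA by -0.47 ± 0.15 (0.15).

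Of 36 further partners and regulators of these proteins, all measured, 1 rose and 1 fell in the combined knockdown against luciferase (5.56%, beside 1.84% of all probe sets). At an unadjusted p under 0.05, 5 were higher and 7 lower there (33.3%, beside 15.3%). After H3.Y siRNA 0 were called by limma, beside 0.279% of all probe sets, and 10 had an unadjusted p under 0.05 (27.8%, beside 13.9%). Between the combined knockdown and H3.Y siRNA, 1 was higher and 2 were lower in the combined knockdown (8.33%, beside 4.67%). Of probe sets that passed the dim filter, 9.57% were called there and 4.56% in the combined knockdown against luciferase. Calls of this list under that filter were not counted. The CIP/KIP inhibitor CDKN1A, which encodes p21, rose in the combined knockdown, with 8.98 and 8.80 against 8.02 and 7.70 in luciferase cells (log2 1.03 ± 0.16, limma adjusted p = 0.040). H3.Y siRNA arrays were at 8.39 and 8.27 (0.47 ± 0.16, limma adjusted p = 0.28). CDC20, the activator of the anaphase-promoting complex, fell by 1.55 ± 0.16 on the log2 scale against luciferase (limma adjusted p = 0.018) and was also lower than after H3.Y siRNA. The CDK subunit CKS2 was lower in the combined knockdown than after H3.Y siRNA, by -1.09 ± 0.20 (limma adjusted p = 0.039). The CDKN1A call was lost without any 1 of the 6 arrays (limma adjusted p of 0.054 to 0.30), and between the knockdowns CKS2 was called only without H3.Y replicate 2 and CDC20 only without H3.Y replicate 1 when each array was left out in turn. The list medians were -0.01 in the combined knockdown and -0.05 after H3.Y siRNA, near those of all probe sets.

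Genes that E2F is known to drive, most of them of DNA replication, lay below luciferase throughout. Of 34 such genes 32 were measured, and 32 of 32 had a lower mean in the combined knockdown and 32 of 32 after H3.Y siRNA, where 49.8% and 46.6% of all probe sets were lower. Their medians were log2 -0.51 and -0.44. In the combined knockdown 3 of them fell, namely CHAF1B, RRM1 and SLBP (9.38%, beside 1.84% of all probe sets), with differences of -1.23 ± 0.13, -1.07 ± 0.13 and -0.84 ± 0.12. At an unadjusted p under 0.05, 20 were lower there (62.5%, beside 15.3%). Of probe sets that passed the dim filter, 4.56% were called in this comparison. Calls of the E2F targets under that filter were not counted. After H3.Y siRNA 0 were called by limma, beside 0.279% of all probe sets, and 21 had an unadjusted p under 0.05 (65.6%, beside 13.9%). Between the combined knockdown and H3.Y siRNA the median was -0.02, with CHAF1B and RRM1 called lower (6.25%, beside 4.67% of all probe sets). The share among probe sets that passed the dim filter was 9.57% between the knockdowns. When each of the 6 arrays was left out in turn, CHAF1B was called there 3 times and RRM1 0 times (limma adjusted p of 0.053 to 0.24 for RRM1).

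**Figure D4:**
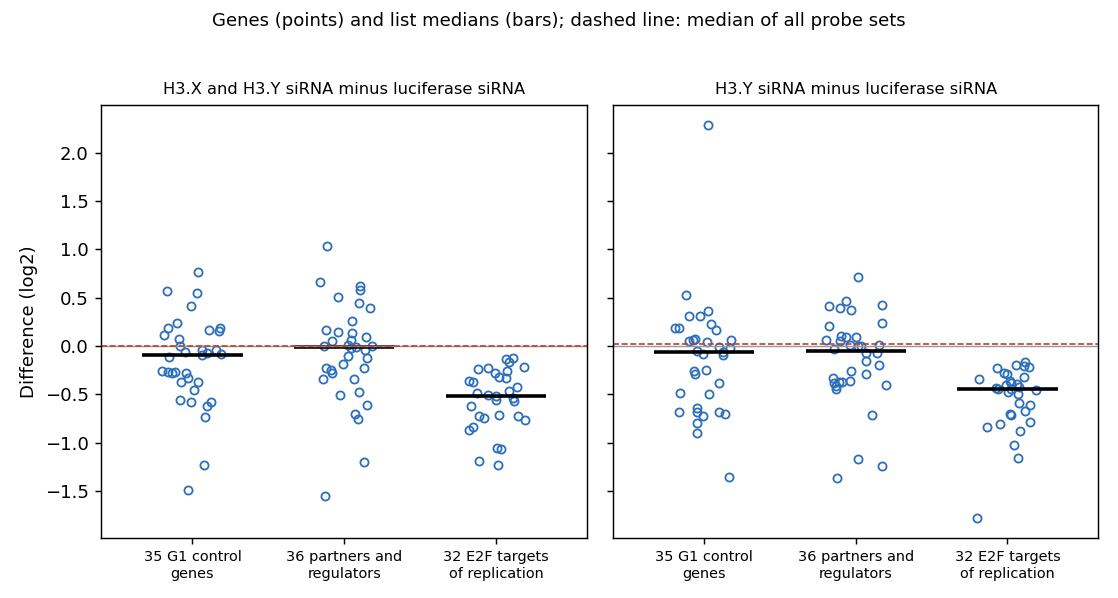
Log2 differences from luciferase of single genes (points) with list medians (bars) for the combined knockdown on the left and H3.Y siRNA on the right, with a dashed line at the median of all probe sets. The 32 E2F targets lie below 0 in both panels, while the 35 G1 control genes spread to both sides.

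Levels of 3 lists of cell type markers were set beside these results. The mean log2 value of 6 epithelial markers was 7.56 to 7.68 in the combined knockdown and 6.46 to 6.65 after H3.Y siRNA, against 6.79 to 7.02 in luciferase cells, with EPCAM 2.25 ± 0.18 above luciferase in the combined knockdown (limma adjusted p = 0.013). For 7 of 8 osteoblast and mesenchymal markers the means were 7.81 to 7.95 in the combined knockdown and 7.25 to 7.42 after H3.Y siRNA, against 7.30 to 7.44 in luciferase cells, so that H3.Y siRNA and luciferase overlapped, with COL1A1 1.58 above luciferase in the combined knockdown (limma adjusted p = 0.019). For 5 of 6 blood markers they were 3.70 to 3.94 in the combined knockdown and 3.75 to 3.80 after H3.Y siRNA, against 3.64 to 3.82 in luciferase cells, so these groups overlapped. EPCAM (2.46 ± 0.18) and CLDN4 (1.51 ± 0.17) were called higher in the combined knockdown than after H3.Y siRNA (limma adjusted p of 0.0051 and 0.012). So were COL1A1 (2.10 ± 0.17) and SPARC (1.31 ± 0.18, limma adjusted p of 0.0058 and 0.019). These are 33.3% of the epithelial and 28.6% of the osteoblast and mesenchymal markers, beside 4.67% of all probe sets, and 0 were called lower. By sign alone, the osteoblast and mesenchymal markers split into 4 higher and 3 lower, the latter being ALPL (-0.21), VIM (-0.12) and SP7 (-0.07). The epithelial markers gave 5 higher and 1 lower. The part of these markers in the results was not tested.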

How the data were processed

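Total RNA of U2OS cells was biotin-labelled by the standard Affymetrix protocol, per the labels' protocols. The log2 expression values per probe set were deposited by the authors, with oligo, an R package for such arrays, among the tools named per the submitters' processing notes. How background was corrected and arrays were normalized, the package version and the genome build are not stated in what was used here. The log2 scale was read from the values, and they were used as deposited. The arrays share a common scale, so a change of all transcripts alike would not be seen.

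Of 33297 probe sets, 19460 had 1 symbol in the platform annotation, and 19429 of these were updated by Entrez ID through the RefSeq table. Groups came from the labels. Differences were fitted with limma 3.58.1 in R 4.3.3 (lmFit and eBayes, 6 arrays, 1 mean per group; degrees of freedom 3 residual and 3.43 from the prior). Tests are two-sided, with Benjamini-Hochberg adjustment over all probe sets in each comparison, and a call is an adjusted p under 0.05. SE is that of the moderated fit, which pools the spread of all 3 groups in every comparison. The procedure was tested on simulated data. Values set beside a difference in brackets are adjusted p-values of this fit.

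Members, gene lists and the rule for named genes were chosen with earlier results of these data known. The rule took members called in any comparison and, per class and comparison, the non-overlapping member with the smallest p, and genes of the lists that were called. The remaining members with values per array (CCND3, CCNE1, CCNE2, CDK2, CDC25A, RBL1, E2F1, E2F2 and MYC) were picked after their values were seen. Lists of partners, E2F targets and cell type markers use the probe set with the highest mean per gene. The motifs were chosen from textbook knowledge with the members' values known.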

Additional observations from a re-analysis of the deposited data

How the results depend on the processing

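No difference that had an unadjusted p under 0.05 changed sign under the 13 alternatives. Of 105 member differences 28 changed sign under at least 1 of them, all of a size up to 0.19, and 4 did so with no array left out. With the replicate number as a block, 1 member (E2F5, limma adjusted p = 0.045) was called after H3.Y siRNA, beside 68 (0.204%) of all probe sets. The member counts of the other comparisons were as reported. Of all probe sets the block called 750 (2.25%) in the combined knockdown against luciferase and 1778 (5.34%) between the knockdowns. The labels give no shared source to equal numbers, and replicate differences correlated between groups with r of 0.122 to 0.28 over all probe sets. In H3.Y siRNA against luciferase, where 0 members were called, centring each array gave 1 (E2F5), the filter on dim probe sets 2 and the intensity trend 2 (E2F5 and SKP2 in both), and 1 probe set per named gene 8. Of all features tested in each, these settings called 110 (0.33%), 241 (1.05%), 205 (0.616%) and 823 (4.47%), beside 93 (0.279%), and the filter and the last setting tested fewer features. The filter and the 1 probe set per gene left the differences unchanged. In both, the prior variance was fitted again and p-values were adjusted over fewer features. Why the counts of calls changed under these or the other alternatives was not tested. In the combined knockdown against luciferase, 1 probe set per gene called 5 members in place of 2. Between the combined knockdown and H3.Y siRNA it called 8 in place of 3, and a fit of only those 4 arrays called 1, E2F5. Centring, the dim filter and the trend each called 4 there, adding CDK4. Of all features tested they called 1528 (4.59%), 2187 (9.57%) and 1956 (5.87%) between the knockdowns. Of all features tested, the dim filter called 1043 (4.56%), the trend 960 (2.88%) and 1 probe set per gene 1479 (8.03%) in the combined knockdown, beside 614 (1.84%). Between the knockdowns 1 probe set per gene called 2629 (14.3%) and the fit of 4 arrays 448 (1.35%), beside 1554 (4.67%). For H3.Y siRNA against luciferase a fit of only its own 4 arrays gave 0 calls beside 93. Without H3.Y replicate 2, CDK4 differed by -1.69 for H3.Y siRNA against luciferase. Without a luciferase or a combined knockdown array, fewer members were called for the combined knockdown against luciferase. Without any 1 of the 6 arrays, fewer were called between the knockdowns. The lone array was then taken to vary like the other groups. Median differences of members ran from -0.15 to -0.04, from -0.18 to -0.09 and from -0.12 to -0.01. No detection calls were at hand, so signal over background limits the reading of low values such as those of CDKN2A.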
